A study of Mus musculus with 40 samples.

Results

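The corticotropin-releasing factor (CRF) system was described from 5 genes of the 55471 in the count table: the ligands Crh and Ucn, the receptors Crhr1 and Crhr2, and the binding protein gene Crhbp. They were taken by symbol, whatever their values, and were followed through all 40 libraries, with and without the libraries above 100 CPM (counts of a gene scaled to a common library size) of Slc17a7. Crh, Crhr1, Crhr2 and Crhbp passed the filter on low counts and were tested, while Ucn did not pass it and is given as counts.

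The libraries were made from RNA of ventral tegmental area punches of adult mice, in 8 groups of 5. Repeated cross fostering (RCF) moved litters to a new adoptive mother daily from postnatal day 1 to 4, and the controls are labelled unhandled. The groups are RCF males and control males, then RCF females and control females, of the C57/Bl6 strain (C57 here), and the same 4 groups of the DBA strain. The labels tie no library to an animal or a litter, and the p-values below therefore rest on the variation among libraries, which may be technical in part.

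CRF is a peptide best known as the hypothalamic trigger of the pituitary and adrenal stress response, and it also acts as a transmitter within the brain. CRF and urocortin act on a pair of receptors that couple mainly to Gs and raise cyclic AMP, CRF preferring the first receptor and urocortin binding the second receptor as well. CRF binding protein is a secreted protein that takes up CRF and urocortin, and in the midbrain CRF released during stress acts on dopamine neurons and their inputs.

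Total counts ran from 16913124 to 28179071 per library. Slc17a7, a vesicular glutamate transporter gene, is on the list of forebrain glutamate neuron markers used here. It exceeded 100 CPM of total counts in 4 libraries: 973 in C57 female RCF replicate 4, 1122 and 480 in C57 male control replicates 1 and 5, and 1226 in DBA female control replicate 3. The highest library under that limit was C57 male RCF replicate 5, at 97.3. The 4 libraries differed in other markers: the 8 hindbrain and spinal cord markers summed to 201 CPM in C57 female RCF replicate 4. In the other high-Slc17a7 libraries, in the order named, they summed to 1.79, 0.697 and 1.20 CPM. The 14 dopamine neuron markers were all detected in each group, yet their summed level ran from 237 to 10970 CPM between libraries, so the punches held very unequal amounts of dopamine neuron RNA. The 12 hypothalamic and mammillary markers ran from 24.5 to 1250 CPM.

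Read per kilobase of merged exon, which allows levels of different genes to be compared, Crhbp was the most abundant of the 5 genes, with a median of 10.2 CPM per kb over the 40 libraries. Crhr1 followed at 6.94 CPM per kb. Crh stood at 1.29 and Crhr2 at 0.413 CPM per kb, and the median of Ucn was 0. The receptor message in these punches was thus mostly Crhr1, and the median of the binding protein message exceeded those of both ligands. In single libraries Ucn exceeded Crhbp in C57 male control replicate 4, at 21.0 against 10.2 CPM per kb, and Crh exceeded it in C57 female RCF replicate 4, at 6.27 against 0.661 CPM per kb. The spread between libraries did not follow this order: the highest library exceeded the lowest 62.4-fold in Crhr2, 48.4-fold in Crhbp, 21.3-fold in Crh and 7.96-fold in Crhr1. In the 36 libraries at or under 100 CPM of Slc17a7 the same ratios were 43.2 for Crhr2, 5.50 for Crhbp, 21.3 for Crh and 2.18 for Crhr1, which made Crhr1 the steadiest of the 4 tested members.

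**Figure D1:**
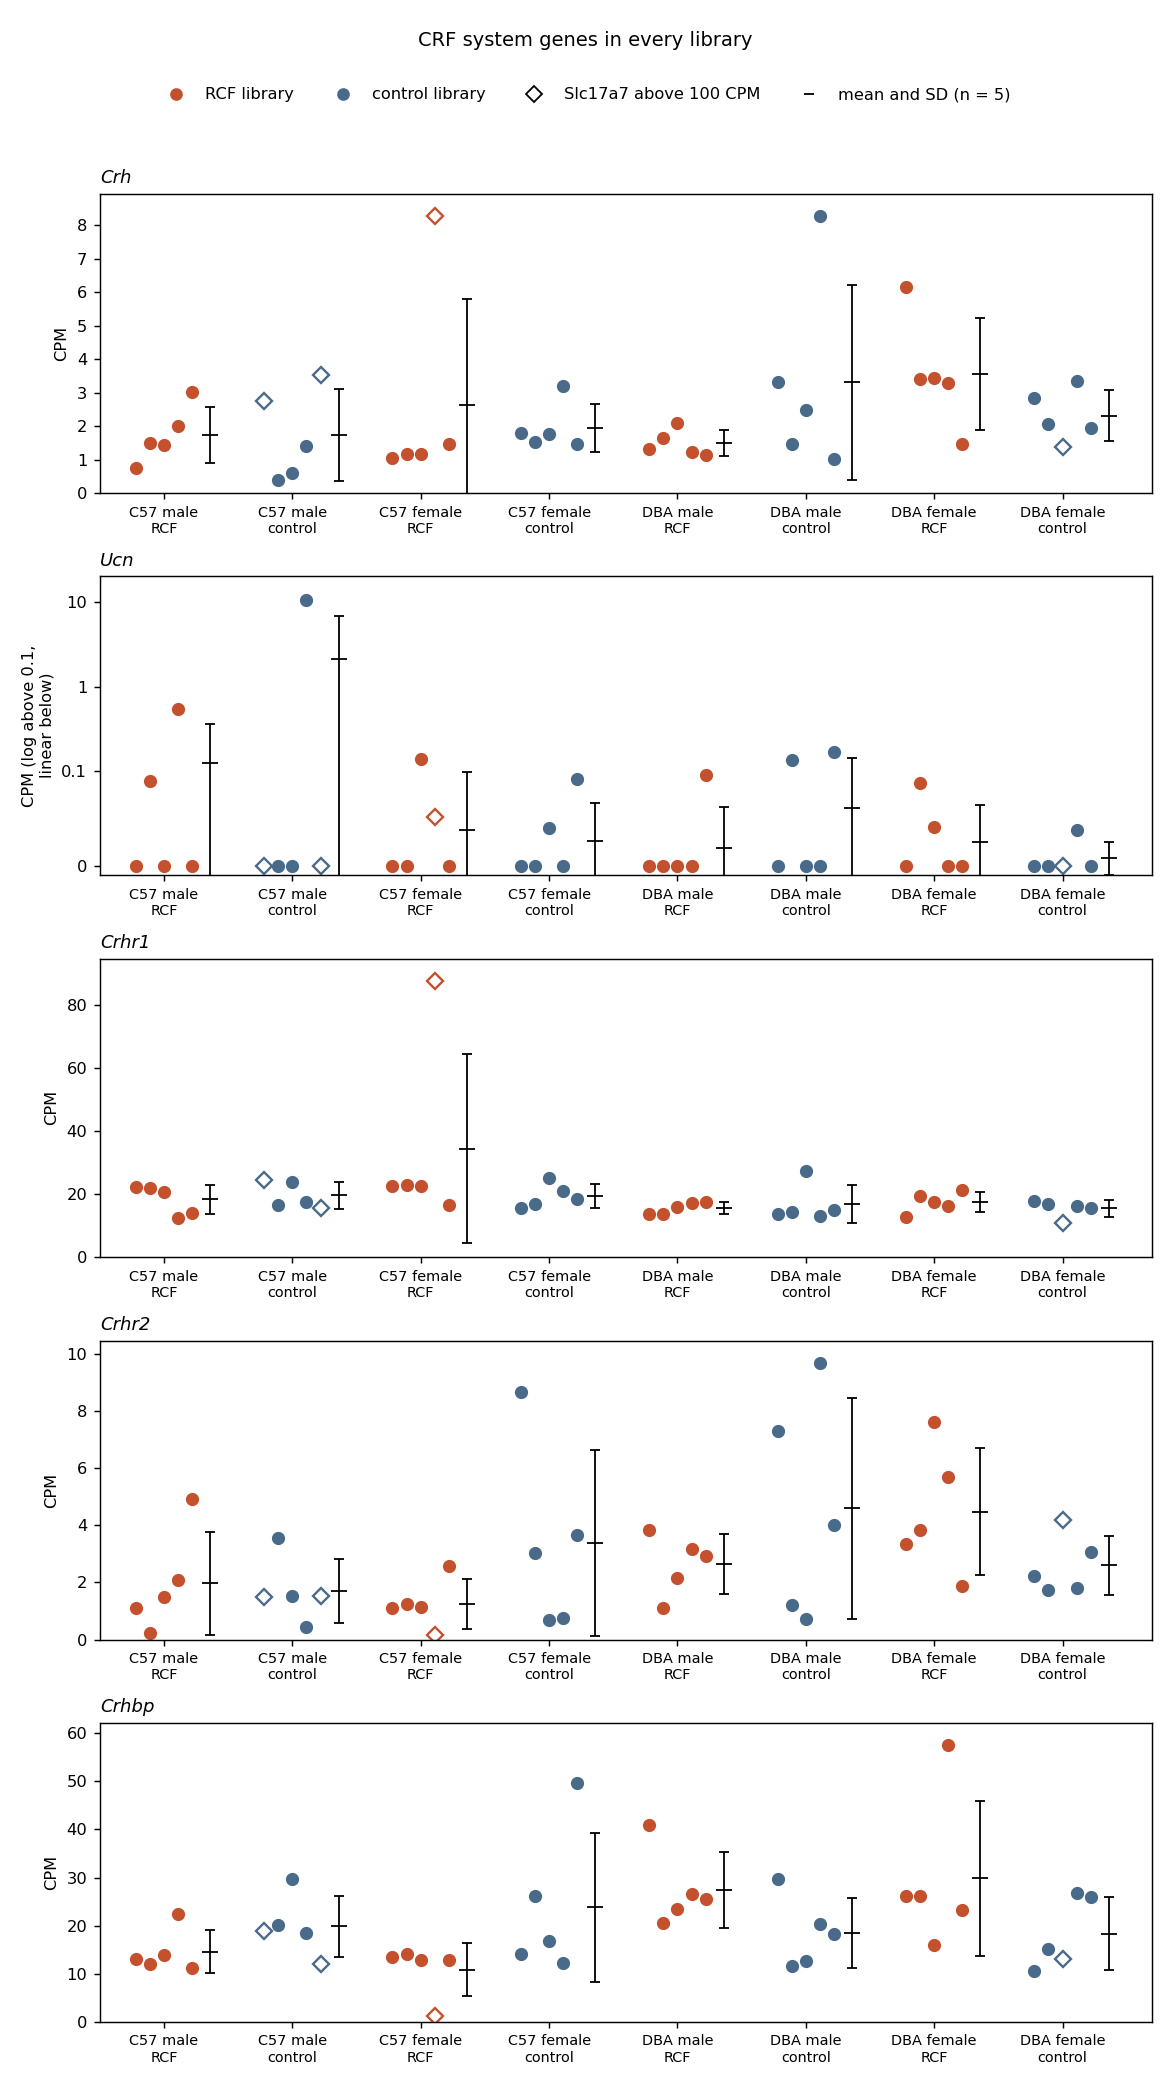
CPM of the 5 genes (vertical axes, linear except for Ucn, which is linear below 0.1 and logarithmic above) in each library of the 8 groups (horizontal axis), RCF in orange and control in blue, with open diamonds for the 4 libraries above 100 CPM of Slc17a7 and a bar for the mean and SD of 5, whose lower end is not drawn below 0. The single high points, such as 87.6 CPM of Crhr1 and 10.6 CPM of Ucn, lie far from the other libraries of their group.

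Crh encodes CRF itself (chromosome 3, 19693401-19695396 on the minus strand, GRCm38). In C57 males Crh stood at 0.758, 1.48, 1.44, 2.00 and 3.01 CPM in the RCF libraries, against 2.76, 0.388, 0.597, 1.40 and 3.53 CPM in the control libraries. The control range enclosed the RCF range, and the log2 fold change was 0.01 (SE 0.56). Without the 4 libraries high in Slc17a7, which here removes the highest pair of controls, it was 1.13 (SE 0.52, edgeR adjusted p = 0.661). In C57 females Crh stood at 1.04, 1.17, 1.17, 8.28 and 1.46 CPM in the RCF libraries, against 1.80, 1.53, 1.75, 3.19 and 1.47 CPM in the control libraries. One RCF library was the highest of all 40, while the other 4 lay below every control. The log2 fold change of 0.42 (SE 0.56, edgeR adjusted p = 0.795) turned to -0.69 (SE 0.45, edgeR adjusted p = 0.625) without the high-Slc17a7 libraries. The library that decides this sign is C57 female RCF replicate 4.

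In DBA males Crh stood at 1.31, 1.65, 2.10, 1.23 and 1.15 CPM in the RCF libraries, against 3.32, 1.45, 2.49, 8.27 and 1.02 CPM in the control libraries. The RCF values were tightly grouped inside the control range, and the log2 fold change was -1.14 (SE 0.56, edgeR adjusted p = 0.744). Without DBA male control replicate 4 it was -0.48, and that library also had the largest sum of hypothalamic markers, 1250 CPM, whose part in the value was not tested. DBA females had 6.15, 3.40, 3.43, 3.28 and 1.47 CPM in the RCF libraries, against 2.83, 2.08, 1.38, 3.34 and 1.95 CPM in the control libraries. Here 3 RCF libraries exceeded the highest control and 1 lay low among the controls, for a log2 fold change of 0.61 (SE 0.55, edgeR adjusted p = 0.668). Ordered by mean, the groups ran from 1.49 ± 0.390 CPM in DBA RCF males to 3.55 ± 1.67 CPM in DBA RCF females (SD, n = 5 each). The ranges of each pair of neighbours in that order overlapped.

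Ucn encodes urocortin (chromosome 5, 31138063-31138829 on the minus strand), a CRF-related peptide made in the mouse midbrain chiefly by neurons of the centrally projecting Edinger-Westphal nucleus. It had no count in 27 libraries, where a count of 0 allows up to 0.106 to 0.177 CPM of total counts, depending on depth, with 3 counts taken as the limit. It had 249 counts in C57 male control replicate 4, which is 10.3 CPM of total counts (95% exact binomial interval 9.04 to 11.6, counting error only). The next library was C57 male RCF replicate 4, with 12 counts, and the other 11 libraries with any read had 1 to 4 counts. In C57 males the scaled values were 0, 0.0897, 0, 0.545 and 0 CPM in the RCF libraries, against 0, 0, 0, 10.6 and 0 CPM in the control libraries. A single control library therefore held 249 of the 283 Ucn counts of the whole study, and no difference between groups can be read from this gene. The related ligand genes Ucn2 and Ucn3 had at most 7 counts in a library and none in 18 and 26 libraries.

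Crhr1, the main CRF receptor of the brain (chromosome 11, 104132855-104175523 on the plus strand), was present at 244 to 1693 counts in every library. In C57 males it stood at 22.4, 21.9, 20.8, 12.6 and 14.0 CPM in the RCF libraries, against 24.5, 16.4, 23.7, 17.5 and 15.7 CPM in the control libraries. The groups overlapped over most of their range, with a log2 fold change of -0.09 (SE 0.29, edgeR adjusted p = 0.956). C57 females had 22.5, 22.9, 22.6, 87.6 and 16.4 CPM in the RCF libraries, against 15.6, 16.9, 25.0, 21.0 and 18.4 CPM in the control libraries. RCF replicate 4 was far above every other library of the study, and the other 4 lay inside the control range. The log2 fold change was 0.82 (SE 0.29, unadjusted p = 0.00796, edgeR adjusted p = 0.252), and 0.12 (SE 0.19, edgeR adjusted p = 0.872) without the libraries high in Slc17a7. That replicate 4 library also had the lowest Th of all 40, 0.724 CPM (Th encodes the dopamine-synthesizing tyrosine hydroxylase), and 33.8 CPM of the hindbrain and spinal cord gene Hoxb5, against at most 0.167 CPM in the other 39. The part of those tissues in the Crhr1 value was not tested.

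In DBA males Crhr1 stood at 13.8, 13.6, 15.9, 17.2 and 17.5 CPM in the RCF libraries, against 13.8, 14.4, 27.4, 13.2 and 15.0 CPM in the control libraries, a log2 fold change of -0.10 (SE 0.29, edgeR adjusted p = 0.961). The control at 27.4 CPM had the highest dopamine marker sum of the study, and without it the value was 0.14. DBA females had 12.9, 19.4, 17.6, 16.3 and 21.4 CPM in the RCF libraries, against 17.8, 16.9, 11.0, 16.2 and 15.7 CPM in the control libraries. These ranges overlapped as well, for a log2 fold change of 0.18 (SE 0.29, edgeR adjusted p = 0.846). By mean, the 4 DBA groups came lowest (15.5 ± 2.65 CPM in DBA control females to 17.5 ± 3.24 CPM in DBA RCF females, SD, n = 5 each) and the 4 C57 groups highest, though each neighbouring pair overlapped.

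Crhr2, the receptor that also binds the urocortins (chromosome 6, 55090049-55133016 on the minus strand), was low, and its highest library exceeded its lowest by a larger factor than in the other 3 tested members. In C57 males it stood at 1.09, 0.224, 1.48, 2.09 and 4.93 CPM in the RCF libraries, against 1.50, 3.54, 1.51, 0.425 and 1.53 CPM in the control libraries, a log2 fold change of 0.21 (SE 0.69). Both groups held a library under 0.5 CPM and one above 3.5 CPM. Without RCF replicate 5, the highest, the value was -0.48. In C57 females Crhr2 stood at 1.09, 1.25, 1.12, 0.155 and 2.58 CPM in the RCF libraries, against 8.67, 3.02, 0.678, 0.768 and 3.67 CPM in the control libraries. The RCF libraries stayed below the highest 3 controls and the lowest pair of controls fell among them, for a log2 fold change of -1.42 (SE 0.69, edgeR adjusted p = 0.395). Without control replicate 1 it was -0.70.

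In DBA males Crhr2 stood at 3.85, 1.10, 2.14, 3.18 and 2.92 CPM in the RCF libraries, against 7.30, 1.23, 0.729, 9.68 and 4.02 CPM in the control libraries. The controls spread to both sides of the RCF values, with a log2 fold change of -0.80 (SE 0.67, edgeR adjusted p = 0.831), and -0.35 without control replicate 4. DBA females had 3.34, 3.84, 7.60, 5.68 and 1.89 CPM in the RCF libraries, against 2.21, 1.72, 4.17, 1.80 and 3.05 CPM in the control libraries. In these females 2 RCF libraries exceeded every control, and the log2 fold change was 0.79 (SE 0.67, edgeR adjusted p = 0.644).

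Crhbp encodes the CRF binding protein (chromosome 13, 95431371-95444924 on the minus strand). In C57 males it stood at 13.1, 12.1, 13.9, 22.3 and 11.2 CPM in the RCF libraries, against 19.0, 20.2, 29.6, 18.4 and 12.1 CPM in the control libraries. Of the RCF libraries, 4 lay below 4 of the controls, and the log2 fold change was -0.45 (SE 0.42, edgeR adjusted p = 0.829). In C57 females Crhbp stood at 13.4, 14.0, 12.9, 1.19 and 12.8 CPM in the RCF libraries, against 14.0, 26.2, 16.7, 12.3 and 49.6 CPM in the control libraries. The RCF libraries sat at the bottom of the control range, with replicate 4 again apart, this time on the low side. The log2 fold change was -1.12 (SE 0.42, unadjusted p = 0.0121, edgeR adjusted p = 0.274), and -0.67 without control replicate 5, the highest library.

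In DBA males Crhbp stood at 41.0, 20.6, 23.4, 26.5 and 25.5 CPM in the RCF libraries, against 29.7, 11.5, 12.6, 20.2 and 18.2 CPM in the control libraries. All 5 RCF libraries exceeded 4 of the 5 controls, for a log2 fold change of 0.57 (SE 0.42, edgeR adjusted p = 0.817), and 0.37 without RCF replicate 1. DBA females had 26.2, 26.2, 15.9, 57.6 and 23.3 CPM in the RCF libraries, against 10.5, 15.1, 13.1, 26.8 and 26.0 CPM in the control libraries. The log2 fold change was 0.70 (SE 0.42, edgeR adjusted p = 0.491), and 0.32 without RCF replicate 4, the highest Crhbp library of the study. Crhbp values were thus lower in RCF than in control means in both sexes of C57 and higher in both sexes of DBA, and none of the 4 differences passed the threshold.

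The question the study's design puts to these genes is whether RCF altered them in each strain and sex. None of the 4 tested members was called by edgeR (Benjamini-Hochberg adjusted p under 0.05) in C57 males, C57 females, DBA males or DBA females. The share of all 18441 genes tested that was called was 0.0108% in C57 males, 0.00542% in C57 females, 0.0163% in DBA males and 0.0163% in DBA females, so a count of 0 among 4 genes is near that background. DESeq2 called none of them either. At an unadjusted p under 0.05, Crhr1, Crhr2 and Crhbp had such values in C57 females, where 12.5% of all genes did. No member had one in C57 males (7.08% of all genes), DBA males (6.72%) or DBA females (12.3%). The 4 comparisons averaged gave log2 fold changes of -0.03 for Crh, 0.20 for Crhr1, -0.31 for Crhr2 and -0.08 for Crhbp, with 0 called against 0.0217% of all genes, and 0 at an unadjusted p under 0.05 against 6.95%. The 95% interval for Crhr1 in that mean, -0.10 to 0.50, was the narrowest, and that for Crhr2, -0.99 to 0.38, the widest. Tissue markers differed in direction between RCF and control too. Of all genes, 46.7% were higher in RCF in C57 males, 51.5% in C57 females, 48.4% in DBA males and 47.6% in DBA females. None of the dopamine neuron and hypothalamic and mammillary markers counted next was called. All 14 dopamine neuron markers had higher fitted values in RCF in C57 males, C57 females and DBA females, and 13 had lower ones in DBA males. Of 10 tested hypothalamic and mammillary markers, 8 were higher in C57 males. In C57 females 9 were lower (median log2 fold change -3.41), as were 9 in DBA males (-1.05). The 11 forebrain glutamate neuron markers were all lower in C57 males (median log2 fold change -2.13), none of them called. Of them, 8 were higher in C57 females, 5 in DBA males and 1 in DBA females. The hindbrain and spinal cord marker Slc6a5 was the 1 gene called in C57 females (log2 fold change 5.16), and no gene was called there without RCF replicate 4. The part of all these markers in the member values was not tested.

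**Figure D2:**
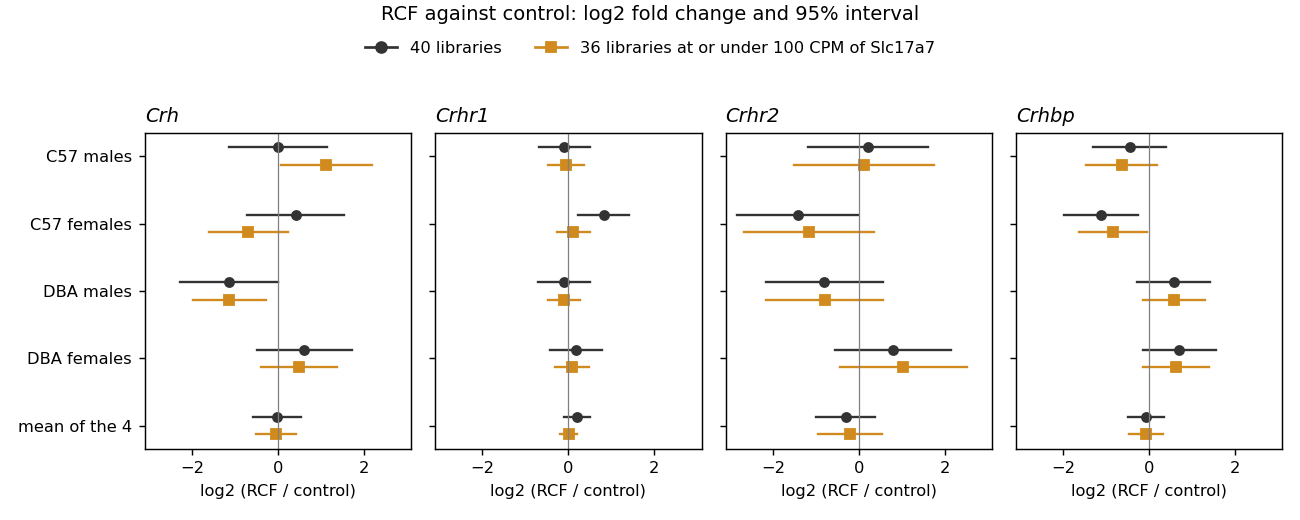
Log2 fold change of RCF over control (points) with 95% intervals (lines) for the 4 tested members in each strain and sex and in their mean, from all 40 libraries (black circles) and from the 36 at or under 100 CPM of Slc17a7 (orange squares). Crhbp lies left of 0 in both C57 comparisons and right of 0 in both DBA comparisons with either set of libraries, whereas Crh in C57 females changes side, 0.42 with 40 libraries and -0.69 with 36.

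The difference of the RCF effects between strains was largest for Crhbp, at 1.42 on the log2 scale for DBA minus C57 (SE 0.42, unadjusted p = 0.00174), but the edgeR adjusted p was 0.770. With the 36 libraries it was 1.34 (SE 0.38, edgeR adjusted p = 0.635), and leaving out any 1 library gave 1.20 to 1.54. No member was called by edgeR or DESeq2 in this interaction, in which 0.0108% of all genes were called by edgeR and 6% had an unadjusted p under 0.05. The corresponding values were -0.47 for Crh, -0.33 for Crhr1 and 0.60 for Crhr2. Between sexes, females minus males, Crh had a difference of RCF effects of 1.08 (SE 0.56, edgeR adjusted p = 0.601) and Crhr1 one of 0.60 (SE 0.29, edgeR adjusted p = 0.589). Without C57 female RCF replicate 4 they were 0.53 for Crh and 0.25 for Crhr1, and without all 4 high-Slc17a7 libraries that of Crh turned to -0.10. Again no member was called by either tool, against 0.00542% of all genes in edgeR, and Crhr1 was the 1 member at an unadjusted p under 0.05, against 8.48% of all genes.

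Between DBA and C57 RCF mice, averaged over sexes, edgeR called Crhbp as higher and Crhr1 as lower in DBA, 2 of the 4 tested members. Of all genes tested, 23.8% were called in this comparison, 11.3% as higher and 12.4% as lower in DBA, so a strain difference was common among genes, and of the 2 calls that of Crhbp alone held without the libraries high in Slc17a7. Crhbp was higher in DBA: its lowest, median and highest values were 15.9, 25.9 and 57.6 CPM in DBA RCF libraries, against 1.19, 13.0 and 22.3 CPM in C57 RCF libraries. Of the 10 DBA libraries, 8 exceeded the highest C57 library and all 10 exceeded the C57 median. The means were 28.6 ± 12.01 CPM in DBA and 12.7 ± 5.07 CPM in C57 (SD, n = 10 each), and the log2 fold change was 1.18 (SE 0.30, edgeR adjusted p = 0.00362). It was called when any 1 of the 20 libraries was left out (0.99 to 1.28) and without the high-Slc17a7 libraries (1.05, SE 0.26, edgeR adjusted p = 0.00346). In RCF females the strains did not overlap in Crhbp, at 15.9 to 57.6 CPM in DBA and 1.19 to 14.0 CPM in C57. In RCF males they overlapped only through DBA replicate 2 (20.6 CPM) and C57 replicate 4 (22.3 CPM). How many of all genes separate the strains in this way was not counted, so the separation cannot be set against a background. In bulk tissue, more cells of a type and more RNA per cell cannot be told apart.

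In control mice the Crhbp contrast had the other sign. Its lowest, median and highest values were 10.5, 16.7 and 29.7 CPM in DBA control libraries, against 12.1, 18.7 and 49.6 CPM in C57 control libraries. The ranges overlapped almost fully, and the log2 fold change was -0.24 (SE 0.29, edgeR adjusted p = 0.651). That the strain contrast of Crhbp passed among RCF mice and not among controls is not by itself a difference between them: the test of that difference is the interaction given above, which did not pass after adjustment.

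Crhr1 was lower in DBA RCF mice, with a lowest, median and highest value of 12.9, 16.8 and 21.4 CPM in DBA RCF libraries, against 12.6, 22.2 and 87.6 CPM in C57 RCF libraries. No DBA library reached the C57 median. The log2 fold change was -0.60 (SE 0.21, edgeR adjusted p = 0.0320), but that size rested on C57 female RCF replicate 4, without which it was -0.25 (edgeR adjusted p = 0.194). It was also -0.25 without all 4 libraries high in Slc17a7 (edgeR adjusted p = 0.168), and without the filter on low counts it was -0.61 and not called (edgeR adjusted p = 0.0786). The call was likewise lost, at -0.56 to -0.59, without any 1 of C57 male RCF replicates 1, 2 and 3, DBA male RCF replicates 1 and 2 and DBA female RCF replicates 1 and 4. Among controls the Crhr1 values were 11.0, 15.3 and 27.4 CPM in DBA libraries, against 15.6, 18.0 and 25.0 CPM in C57 libraries. Of the DBA controls, 1 exceeded the C57 median, and the log2 fold change was -0.27 (SE 0.21, edgeR adjusted p = 0.418).

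Crhr2 was at 1.10, 3.26 and 7.60 CPM (lowest, median and highest) in DBA RCF libraries, against 0.155, 1.19 and 4.93 CPM in C57 RCF libraries. Of the 10 DBA libraries, 9 exceeded the C57 median. Its log2 fold change of 1.13 (SE 0.48, edgeR adjusted p = 0.0879) did not pass, whereas DESeq2 gave 1.13 with an adjusted p of 0.0487, and without C57 male RCF replicate 5 edgeR gave 1.47 with an adjusted p of 0.0279. Among controls the Crhr2 log2 fold change was 0.53 (SE 0.47, edgeR adjusted p = 0.512).

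Crh did not separate the strains in the full set, at 1.02, 2.28 and 8.27 CPM in DBA control libraries, against 0.388, 1.64 and 3.53 CPM in C57 control libraries (log2 fold change 0.59, SE 0.39, edgeR adjusted p = 0.348). Among controls none of the members was called by edgeR or DESeq2, where edgeR called 16% of all genes (7.87% higher and 8.13% lower in DBA), and none had an unadjusted p under 0.05, where 28.6% of all genes did. Without the high-Slc17a7 libraries, 9 DBA controls had 2.97 ± 2.14 CPM and 8 C57 controls had 1.52 ± 0.852 CPM of Crh (SD). The log2 fold change of 1.21 (SE 0.34, edgeR adjusted p = 0.00952) passed, in a comparison where 19.9% of all genes were called. The 2 C57 control males left out there had 2.76 and 3.53 CPM of Crh, and only 1 of the 8 other C57 controls, at 3.19 CPM, lay above the lower of them. Among RCF mice the Crh value was 0.11 (SE 0.39, edgeR adjusted p = 0.868), and 0.67 (SE 0.31, edgeR adjusted p = 0.109) without those libraries.

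**Figure D3:**
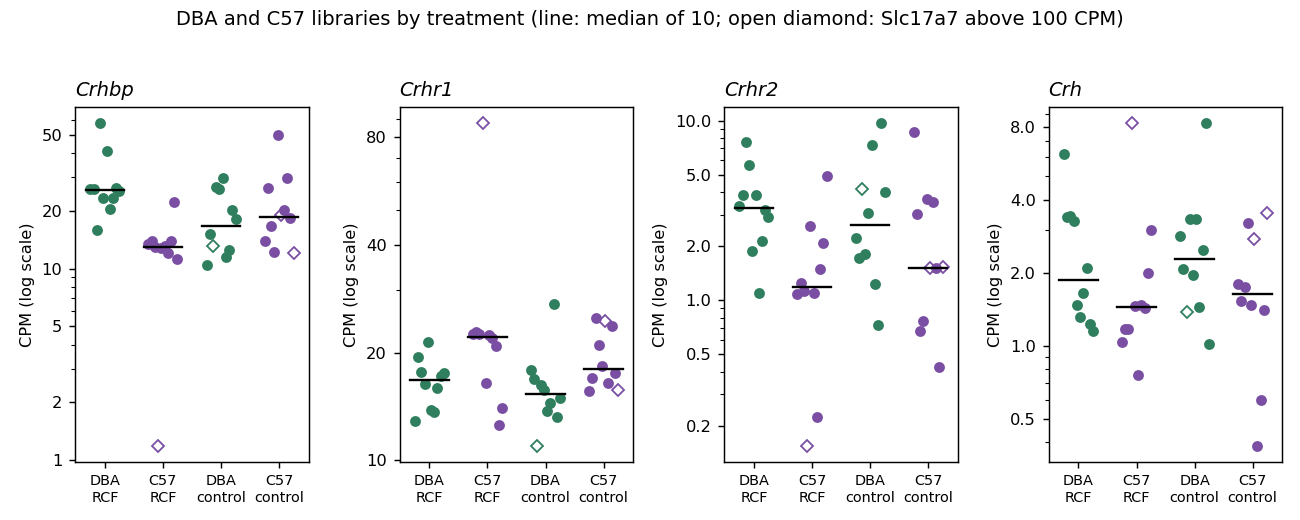
CPM on log axes of Crhbp, Crhr1, Crhr2 and Crh in DBA (green) and C57 (purple) libraries, RCF on the left and control on the right of each panel, with a line at the median of 10 and open diamonds for the libraries above 100 CPM of Slc17a7. The Crhbp medians are 25.9 CPM in DBA RCF and 13.0 CPM in C57 RCF libraries, while the control medians, 16.7 CPM in DBA and 18.7 CPM in C57, lie close together.

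Markers of tissue differed in the strain contrast among RCF mice, with counts of called genes to be read beside the 23.8% of all genes called there. All 14 dopamine neuron markers had lower fitted values in DBA, 4 of them called (Chrna6, Aldh1a1, Ddc and Slc18a2), and their summed level was 290 to 5907 CPM (median 449) in DBA RCF libraries, against 309 to 8544 CPM (median 5138) in C57 RCF libraries. All 10 tested hypothalamic and mammillary markers had higher fitted values in DBA, with Pmch and Nkx2-1 called, and summed to 50.8 to 387 CPM in DBA, against 24.5 to 402 CPM in C57. Of the 7 cortical interneuron markers, 4 were higher and 1, Lhx6, was called. No marker of these 3 lists was at 0 throughout a group. Lower fitted values in DBA RCF mice were also found in other lists, for 7 of 7 oligodendrocyte markers (4 called), 5 of 6 microglia markers (4 called), 6 of 6 endothelial markers (3 called), 4 of 4 tested serotonin neuron markers (2 called) and 8 of 8 meninges markers (1 called). The oligodendrocyte markers summed to 5171 to 14193 CPM in DBA, against 8148 to 25182 CPM in C57, and the microglia markers to 119 to 175 CPM in DBA, against 144 to 245 CPM in C57. The part of all these markers in the Crhbp, Crhr1 and Crhr2 contrasts was not tested. Among controls the dopamine markers again had 14 of 14 lower fitted values in DBA, none of them called.

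Between sexes, control females against control males, no member was called by edgeR or DESeq2, where edgeR called 0.0922% of all genes, and none had an unadjusted p under 0.05, where 10.3% of all genes did. The log2 fold changes were -0.17 for Crh, -0.06 for Crhr1, 0.08 for Crhr2 and 0.12 for Crhbp, each with an SE of at least 0.21. Without the high-Slc17a7 libraries those of Crh, Crhr2 and Crhr1 changed sign, to 0.46, -0.089 and 0.00069. Crhbp, for example, averaged 21.0 ± 11.8 CPM in control females and 19.1 ± 6.45 CPM in control males (SD, n = 10 each).

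The receptors varied between libraries of the same group together with tissue markers. The members' log2 CPM was set against the mean log2 CPM of 7 marker lists, both as deviations from group means, over 35 pairs of gene and list (two-sided permutation within groups, adjusted over the 35). In the 36 libraries at or under 100 CPM of Slc17a7, Crhr1 followed the dopamine neuron list closely, with r = 0.89 and rho = 0.85 (adjusted p = 0.000175 for each). Without the 2 libraries farthest from the median of the list, r was 0.83. The relation rested on leaving out those 4 libraries: over all 40, r was 0.11 (adjusted p = 0.696) and rho 0.43 (adjusted p = 0.117), and without the 2 farthest of the 40 r was -0.078 (adjusted p = 0.962). Among the 4, C57 female RCF replicate 4 had the highest Crhr1, 87.6 CPM, at a dopamine marker sum of 363 CPM. C57 male control replicate 1 had 24.5 CPM of Crhr1 at a sum of 237 CPM, the lowest of the 40. C57 male control replicate 5 had 15.7 CPM at a sum of 336 CPM, and DBA female control replicate 3 had 11.0 CPM at a sum of 273 CPM.

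Single libraries show the scale of that relation. DBA male control replicate 3 had 10970 CPM of dopamine markers and 27.4 CPM of Crhr1, the most of both among the 36. At the low end, DBA female RCF replicate 1 had 290 CPM of the markers and 12.9 CPM of Crhr1. C57 female RCF replicate 5, with 6994 CPM of dopamine markers and 16.4 CPM of Crhr1, was an exception. Set against the very wide range of the dopamine markers, the range of Crhr1 over those 36 libraries was 2.18-fold.

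Crhr2 followed the hypothalamic and mammillary list, with r = 0.80 and rho = 0.79 in all 40 libraries and r = 0.81 and rho = 0.78 in the 36 (adjusted p = 0.00035 and 0.000175). The 2 farthest libraries left out, r was 0.77 in the 40. DBA male control replicate 4 had both the largest marker sum, 1250 CPM, and the highest Crhr2, 9.68 CPM, and C57 female RCF replicate 4 had the smallest of both, 24.5 CPM and 0.155 CPM. The relation was opposite for Crhr1, with r = -0.51 and rho = -0.57 in the 40 (adjusted p = 0.00262 and 0.00315) and r = -0.62 in the 36. In the 36 libraries Crhr2 was also negatively related to the dopamine list (r = -0.67, adjusted p = 0.00595) and positively to the cortical interneuron list (r = 0.59, adjusted p = 0.0310). By rho that interneuron relation of Crhr2 also passed in the 40 (rho = 0.56, adjusted p = 0.00863), where r did not (0.48, adjusted p = 0.0569). Crhr1 was negatively related to the interneuron list by rho in the 36 (rho = -0.50, adjusted p = 0.0441), but not by r (-0.43, adjusted p = 0.301). Without the 2 farthest of the 40 its r was -0.50 (adjusted p = 0.0252). Crhbp was related to the interneuron list in the 36 (r = 0.46, rho = 0.56, adjusted p = 0.0387 and 0.0112). Over all 40 neither measure passed for Crhbp (r = 0.22, rho = 0.32, adjusted p = 0.315 and 0.224). Without the 2 farthest of the 40 its r was 0.45 (adjusted p = 0.0252). The lists were not independent of each other, and Crh and Ucn had no relation past the threshold in either set as a whole. Without the 2 libraries farthest from the median of each list in the 40, Crh was related to the dopamine list (r = -0.58, adjusted p = 0.0225) and to the forebrain glutamate neuron list (r = 0.56, adjusted p = 0.0466).

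**Figure D4:**
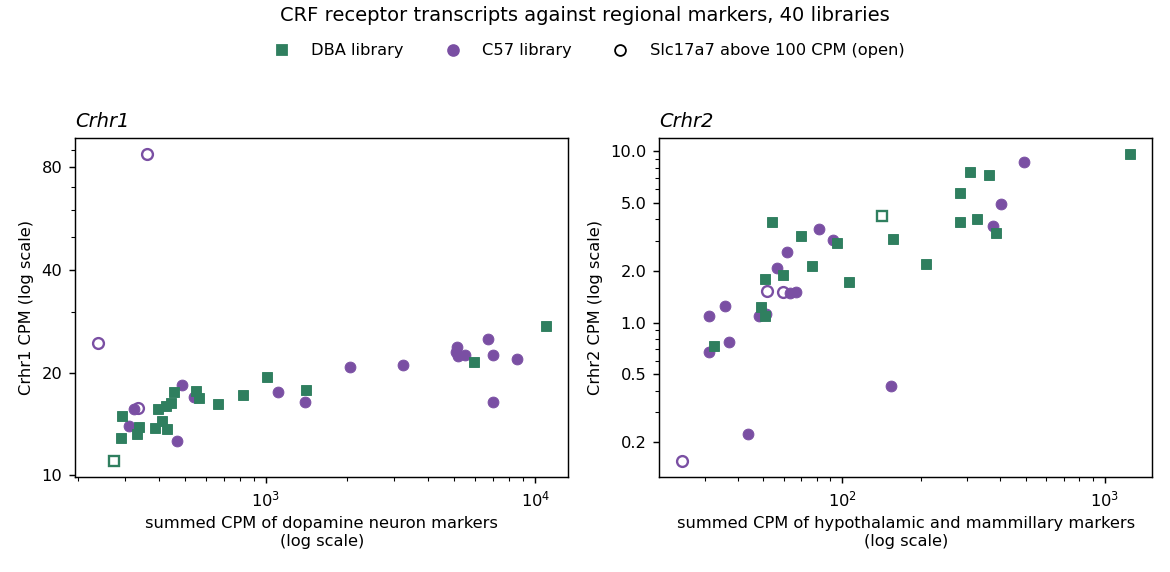
Left, Crhr1 CPM against the summed CPM of 14 dopamine neuron markers; right, Crhr2 CPM against the summed CPM of 12 hypothalamic and mammillary markers, each point 1 of 40 libraries on log axes (green squares DBA, purple circles C57, open symbols above 100 CPM of Slc17a7). Crhr1 climbs slowly to 27.4 CPM at 10970 CPM of dopamine markers with 1 open point far above at 87.6 CPM, and Crhr2 climbs to 9.68 CPM at 1250 CPM of hypothalamic markers.

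Among the members, the receptors varied in opposite directions within groups. Over 6 pairs of members, Crhr1 and Crhr2 had r = -0.64 and rho = -0.63 in all 40 libraries (adjusted p = 0.0003 and 0.00042) and r = -0.61 in the 36 (adjusted p = 0.00888). Crhr2 and Crhbp had r = 0.46 and rho = 0.42 in the 40 (adjusted p = 0.0402 and 0.0478), but 0.35 in the 36 (adjusted p = 0.235). Crh was related to none of the other 3 past the threshold.

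Of all genes tested, those with the most similar pattern were found by Spearman's rho of the same deviations, as a description. In the 36 libraries Crhr1 was most like Chrnb3 (0.87), a nicotinic receptor subunit gene, Slc6a3 (0.86), the dopamine transporter gene, Pitx3 (0.84), a transcription factor of dopamine neurons, Fam210b (0.84) and Slc10a4 (0.83). Slc6a3 and Pitx3 are on the dopamine marker list. Over all 40 libraries these gave way to Nfe2l1 (0.77), Armh4, Klhdc8a, Cdk14 and Pgk1 (0.71). Crhr2 was most like Ncald (0.87), Armcx6, Rcn1, Pla2g4e and Sfta3-ps in the 36, and Sfta3-ps (0.83), Rprm, Grik2, Gal (0.80), which encodes the neuropeptide galanin, and Actn2 in the 40. Crhbp was most like Bhlhe22 (0.79), Lrpap1, Irx5, C2cd4c and Dach2 in the 36, and Lrpap1 (0.84), Vwa5b1, Gaa, Il4ra and C2cd4c in the 40. Crh had the loosest likenesses, Plagl2 (0.71), Ppp1r10, Crim1, Slitrk1 and Kat6b in the 36, and Camk1g (0.68), Upf2, Rpap3, Cdcp1 and Kcng1 in the 40.

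Beyond the 5 members, 32 further pathway genes were listed, of which 28 were tested. They are the other urocortins and stress axis partners, and, downstream of the receptors, the Gs and cyclic AMP arm, the Gq arm and receptor desensitization. None was called for RCF in any strain and sex, in the mean, in either interaction or between sexes. The median log2 fold change of the 28 was 0.04 in C57 males, -0.00375 in C57 females, 0.07 in DBA males and -0.02 in DBA females, beside -0.02, 0.00786, -0.00694 and -0.01 over all genes. Between strains, 1 rose in DBA controls and none fell, beside 7.87% and 8.13% of all genes: Prkaca, a catalytic subunit of protein kinase A, by 0.16 (edgeR adjusted p = 0.0176). Among RCF mice 4 of the 28 rose in DBA and none fell, beside 11.3% and 12.4% of all genes. They were Adcy3 (0.28, edgeR adjusted p = 0.00347) and Adcy8 (0.34, edgeR adjusted p = 0.0150), which encode adenylyl cyclases, Arrb2 (0.27, edgeR adjusted p = 0.0118), which encodes a beta-arrestin, and Gnas (0.20, edgeR adjusted p = 0.0456), which encodes the Gs alpha subunit. Without the libraries high in Slc17a7 the counts were larger: 8 of the 28 rose and 2 fell, Plcb1 (-0.50, edgeR adjusted p = 0.000209), which encodes a phospholipase C of the Gq arm, and Grk3 (-0.38, edgeR adjusted p = 0.00207), which encodes a receptor kinase, in DBA RCF mice, where 26.9% of all genes were called. In controls 3 rose and 1 fell, where 19.9% of all genes were called.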

How the data were processed

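Messenger RNA of 40 ventral tegmental area libraries was analysed. The authors deposited raw counts of reads for each gene. Per the labels' protocols, libraries were made with a stranded mRNA kit and read as single 75 nt reads. The genome build was GRCm38 (mm10), and the tools included cutadapt 1.11 and bcl2fastq 2.20, per the submitters' processing notes. Aligner, counter and strand setting were not given in the sources used here, and differences in how DBA reads map to that genome were not tested.

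Symbols, coordinates and merged exon lengths come from GENCODE's GRCm38 annotation, and no annotated gene overlapped a member. All 40 libraries entered 1 edgeR 4.0.16 fit (R 4.3.3; robust quasi-likelihood F test, TMM, filterByExpr, 8 group means, 32 residual degrees of freedom), with Benjamini-Hochberg adjustment over 18441 genes and a threshold of 0.05. CPM is scaled by TMM unless named as CPM of total counts. Relations used log2 CPM (prior count 2) and 100000 permutations within groups. Libraries of a group differed beyond sampling noise in all 80 pairs. Fits were tested on simulated counts with the same spread for all genes and no differences in tissue content between libraries. How the fit behaves with such differences was not tested. Alternatives were RLE factors, DESeq2 1.42.0, no filter, a replicate block, each library left out and the 36 libraries at or under 100 CPM of Slc17a7. Same-numbered replicates do not share a stated litter or batch. Named beside the 5 members are pathway genes past the threshold (up to 6 a comparison, by smallest p), Ucn2, Ucn3, preset tissue markers and the 5 named genes most like each member. The members and lists were chosen with earlier results of these data known. Lists are described by counts without a list test.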

Additional observations from a re-analysis of the deposited data

Results flagged for a closer look

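In 12 of 40 groups (5 genes in 8 groups of 5 libraries) 1 library stood apart from the other 4 by more than Dixon's 95% limit of 0.71 of the group's range. For independent groups of normally distributed values, chance gives about 1 in 20. Here the CPM were not log-transformed and the 5 genes share libraries, so the 12 cannot be read against that share. Nor does it apply to Ucn in groups with 4 libraries at 0, where any count in the fifth passes the limit. C57 female RCF replicate 4 stood apart in 3 genes: Crh at 8.28 CPM, Crhr1 at 87.6 CPM and, on the low side, Crhbp at 1.19 CPM. Crh also stood apart in C57 female control replicate 4, at 3.19 CPM. Ucn did so at 0.545 CPM in C57 male RCF replicate 4, 10.6 CPM in C57 male control replicate 4, 0.0958 CPM (2 counts) in DBA male RCF replicate 5 and 0.0384 CPM (1 count) in DBA female control replicate 4. Crhr1 stood apart at 27.4 CPM in DBA male control replicate 3. Crhbp stood apart at 22.3 CPM in C57 male RCF replicate 4, 41.0 CPM in DBA male RCF replicate 1 and 57.6 CPM in DBA female RCF replicate 4.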

How the results depend on the processing

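Of 200 member log2 fold changes under other settings, 188 kept their direction and side of the threshold, 8 reversed, 2 were no longer called and 2 became called. Of 880 with 1 library left out, 816 kept both, 55 reversed, 8 were no longer called and 1 became called. The causes were not tested. None of the reversed values was called under either setting. Without the 4 libraries above 100 CPM of Slc17a7 the reversals were Crh for RCF in C57 females (-0.69), Crh and Crhr2 for the RCF effect in females minus males (-0.10 and 0.28), and Crh, Crhr2 and Crhr1 for control females against males (0.46, -0.089 and 0.00069). With a replicate block they were Crh in the mean RCF effect (0.022) and Crhr2 in females minus males (0.15). Same-numbered replicates did not vary together (correlation of deviations -0.27 to 0.18 over 20 pairs, 2 above 0.1, with 3 best with their own number), so the block pairs libraries by number alone.

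The number of members called between strains among RCF mice was 2, where 23.8% of all genes were called. It was 1 without the filter or without the high-Slc17a7 libraries (26.9% of all genes without those libraries), 3 with DESeq2 and 1 to 3 with 1 library left out. Among controls it was 0, beside 16% of all genes, and 1 without the high-Slc17a7 libraries, beside 19.9%. All members taken with the 7 marker lists, 2 of 35 relations passed by Pearson's r in the 40 libraries, 6 in the 36 and 7 without the 2 farthest. The number of genes called for RCF in edgeR, against DESeq2, was 2 against 7 in C57 males, 1 against 85 in C57 females, 3 against 18 in DBA males, 3 against 43 in DBA females and 4 against 11 in the mean. It was 1 against 8 for females minus males, and 17 against 62 for sex in controls. Without the filter it was 1 in C57 males and 0 in C57 females, and with the block 0 in C57 females and 1 for DBA minus C57. Without the high-Slc17a7 libraries the counts were 0 in C57 males, 0 in C57 females, 7 in DBA females, 4 for DBA minus C57 and 3 for females minus males. With 1 library left out, genes called ran over 2 to 5 in C57 males, 0 (without RCF replicate 4, among others) to 25 (without control replicate 3) in C57 females, 3 to 7 in DBA males, 1 to 4 in DBA females, 1 to 3 for DBA minus C57, 1 to 2 for females minus males and 13 to 31 for sex.

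Member values that changed sign with 1 library left out had these ranges. For RCF in C57 males they were -0.29 to 0.44 (Crh), -0.48 to 0.66 (Crhr2) and -0.18 to 0.014 (Crhr1), in C57 females -0.68 to 0.65 (Crh), and in DBA males -0.18 to 0.14 (Crhr1). In the mean they were -0.30 to 0.14 (Crh) and -0.17 to 0.038 (Crhbp), and for DBA minus C57 -0.69 to 0.077 (Crh) and -0.41 to 0.023 (Crhr1). For females minus males Crhr2 ran from -0.25 to 0.35, and for DBA against C57 in RCF mice Crh ran from -0.037 to 0.66. For control females against males they were -0.30 to 0.17 (Crh), -0.29 to 0.31 (Crhr2), -0.12 to 0.066 (Crhr1) and -0.11 to 0.24 (Crhbp). Ucn was fitted only without the filter on low counts, where it was not called in any comparison. Its values farthest from 0 there were -4.20 for control females against males (edgeR adjusted p = 0.481) and -4.02 for RCF in C57 males (edgeR adjusted p = 0.726). Both comparisons contain the library with 249 of the 283 Ucn counts, so no group difference can be read from them.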

Other observations

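The genes listed here were chosen after their values were seen. C57 male control replicate 4, the library with 249 Ucn counts, was compared with the highest of the other 39 libraries over 9980 genes at 10 CPM or more. Ucn led with a ratio of 19.4, followed by Rln3, which encodes relaxin-3, with 18.6 CPM against 2.71 CPM. Agtr2, an angiotensin receptor gene, stood at 10.2 CPM against 4.62 CPM, and Cartpt, the gene of the CART peptide, at 124 CPM against 59.5 CPM.

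In C57 female RCF replicate 4, which had the highest Crhr1, the leading genes were Hoxc4 (32.9 CPM against 0.102 CPM in the highest other library), Hoxb3 (41.2 CPM against 0.199 CPM), Hoxb5 (33.8 CPM against 0.167 CPM) and Fat2 (82.0 CPM against 0.567 CPM), and Crhr1 ranked 49. In DBA female RCF replicate 4, which had the highest Crhbp, the leading genes were the activity-dependent transcription factor gene Npas4 (31.3 CPM against 17.2 CPM) and Btg2 (24.7 CPM against 13.6 CPM), and Crhbp ranked 7.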
